A study of Mus musculus with 20 samples.

Results

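Usp and Otud genes encode deubiquitinases, the proteases that take ubiquitin off other proteins, and their transcripts were compared between soleus and gastrocnemius of mice with loaded or unloaded hind limbs. The members were all non-control probes whose gene name in the array files was Usp followed by a number, or began with Otud, and each gene was read from its brightest probe over the 20 arrays. The rule found 53 genes of 27962 on the array, 46 Usp and 7 Otud genes, and left out Usp9x, Usp9y, Usp27x and Uspl1, whose names differ in form. Of the 53, 52 were tested among 25536 genes, because no array showed Usp44 well above background.

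Male ICR mice aged 6 months, all housed singly, either walked freely for 24 h (control) or underwent hind-limb suspension (HLS) for the same time, held by the tail at a head-down tilt of 45°. No transgene, deletion or drug was part of the design. Each of the 4 groups (soleus control, soleus HLS, gastrocnemius control and gastrocnemius HLS) had 5 one-colour Agilent arrays, 1 per animal, and both muscles with 1 animal number in an arm came from the same mouse. RNA came from whole muscle, so a lower level can mean fewer cells of a type or less RNA per cell, and these cannot be told apart.

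Ubiquitin is a small protein that cells attach to other proteins, alone or in chains. Chains joined in some ways send a protein to the proteasome, and chains joined in other ways change its place or its partners. Deubiquitinases cut these marks, recycle ubiquitin, and so set how long many proteins last. The Usp family is the largest group of such enzymes, and the Otud genes belong to the ovarian tumour (OTU) family, whose members often prefer chains of 1 linkage. In unloaded muscle the best known ubiquitin enzymes are ligases that attach ubiquitin to contractile proteins, and deubiquitinases work against or beside them.

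Levels are log2 of the processed spot intensity minus log2 of the array's own 75th percentile. Levels of different probes are not comparable with each other. Differences are log2 differences ± SE from limma, with 95% intervals in square brackets, and the Benjamini-Hochberg adjusted p (over all 25536 genes) had to lie below 0.05 to pass. The number of arrays limits the precision: the median SE of a difference between 2 groups over the 52 members was 0.134.

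The share of spots well above background ran from 80.8% to 93.1%, and replicate arrays of a group correlated at 0.971 to 0.988. Slow fibre genes bore out the muscle labels in controls: 9 of 10 passed as higher in soleus control, with a median difference of 2.78. Fast fibre genes were mixed: of 11, 6 passed as lower in soleus control and 3 as higher, with a median of -0.68. Of all genes, 20.9% passed as lower and 12.6% as higher. Soleus HLS 1 stood apart. Its mean level over the slow fibre genes was 4.61, against 6.20 to 6.83 on the other soleus HLS arrays and 4.05 to 4.98 in gastrocnemius control, and its mean over fast fibre genes was 8.28, the highest of the 20 arrays. Its part in the results was not tested, and the count of members, the marker lists and the members whose values it moved most are also given without it. Slide and scan day moved with the groups: no slide held both muscles, and within soleus only slide 5 (control 5 with HLS 1 to 3) held both conditions. E1A spike-in probes stood at 1.50 ± 0.05 relative to the percentile in soleus control, 1.75 ± 0.20 in soleus HLS, 2.54 ± 0.08 in gastrocnemius control and 1.77 ± 0.14 in gastrocnemius HLS (SD, n = 5), so the percentile itself stood differently against the spike-ins, and all differences below are relative to the percentile.

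The first comparison asks which deubiquitinase transcripts move within 1 day of unloading in the soleus, a postural muscle rich in slow fibres. Otud1, Usp47, Usp12 and Usp28 fell, and Usp3, Usp53 and Usp54 rose. These 7 of 52 members (13.5%) passed, beside 5.91% of all genes tested, with 3 higher (5.77%, beside 2.38%) and 4 lower (7.69%, beside 3.52%). The median difference was 0.05 over the members and 0.05 over all genes. In 5 members, Otud1, Usp47, Usp12, Usp28 and Usp3, the 5 HLS arrays did not overlap the 5 control arrays, which is 9.62% of the members beside 5.04% of all genes. Without HLS 1, the 7 still passed and Usp46 joined them, beside 5.47% of all genes.

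In the gastrocnemius, a mixed muscle rich in fast fibres, Otud1 and Usp28 fell and Usp3 rose. These 3 of 52 members (5.77%) passed, beside 3.16% of all genes, and all 3 were also among the 7 of the soleus. Of these 1 was higher (1.92%, beside 1.15%) and 2 were lower (3.85%, beside 2.01%). The median difference was -0.00 over the members and 0.01 over all genes. In 7 members (13.5%, beside 7.41% of all genes) the HLS and control arrays did not overlap. The test of the difference between the 2 muscles' responses found 0 of 52 members past the threshold with limma, beside 0.00783% of all genes (2 genes), and 4 members at an unadjusted p below 0.05, beside 5.74% of all genes. So no member is shown to respond differently in the 2 muscles, although 4 passed in the soleus without passing in the gastrocnemius. The 2 muscles of an arm came from the same mice.

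**Figure D1:**
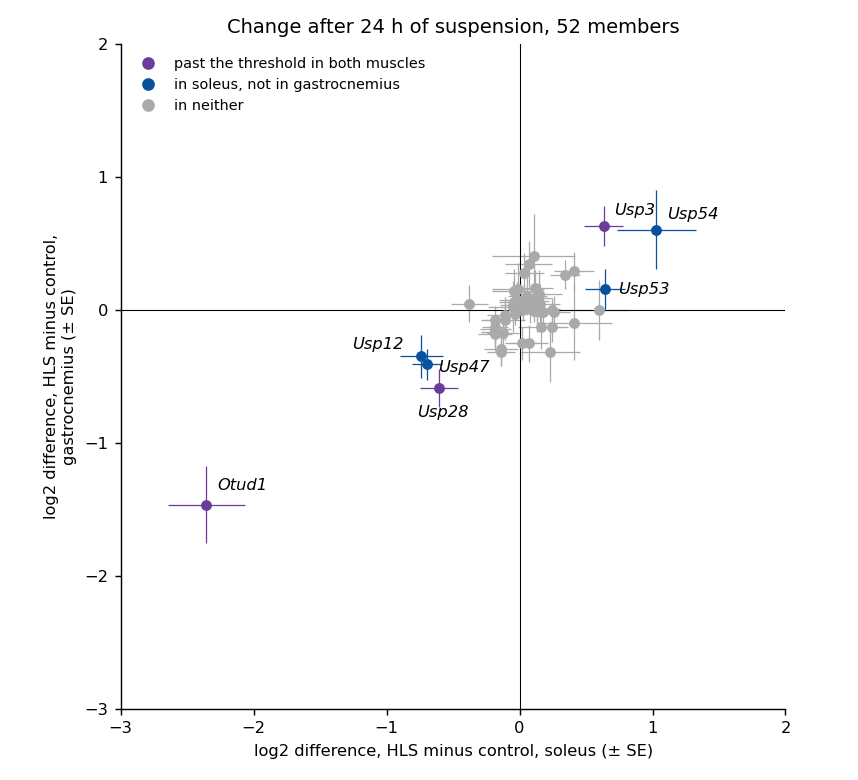
Log2 difference between HLS and control in soleus (horizontal axis) and gastrocnemius (vertical axis) for the 52 tested members; points are limma estimates and bars are ± SE. Otud1 lies alone at -2.36 and -1.46, Usp28 and Usp3 also passed in both muscles, and 45 members passed in neither.

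Otud1 encodes an OTU deubiquitinase that cuts chains joined through lysine 63 of ubiquitin, a linkage used in signalling rather than in degradation. It had the largest change of all 52 members in both muscles. This rests on a single probe, since no other Otud1 probe was kept to set beside it. In soleus control its level was 0.88, -1.24, -0.50, -0.25 and -0.70 on arrays 1 to 5, and in soleus HLS it was -2.98, -2.82, -2.95, -2.50 and -2.33. Every HLS array lay well below the lowest control array, and the control arrays spread far more widely than the HLS arrays. The gastrocnemius control arrays stood at -0.21, -1.29, -1.15, -0.61 and -1.32, and in gastrocnemius HLS -2.58, -2.64, -2.40, -2.36 and -1.90. Again the groups did not overlap. The difference was -2.36 ± 0.29 [-2.96, -1.75] in soleus, a level 0.195 times that of control (adjusted p = 3.3e-05 in limma), and -1.46 ± 0.29 [-2.07, -0.86] in gastrocnemius (adjusted p = 0.0064). Its size depended on the processing: over 23 other settings it ran from -2.57 to -1.60 in soleus and from -1.67 to -0.99 in gastrocnemius. The soleus change exceeded that of the gastrocnemius by 0.89 ± 0.41, which did not pass (adjusted p = 0.85). In controls Otud1 stood 0.55 ± 0.29 higher in soleus (adjusted p = 0.15), and it was higher in the soleus of 5 of 5 control mice and in the soleus of 0 of 5 HLS mice.

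The promoter of Otud1 is shown because this gene changed most, and those of Usp28 and Usp3 because they were the other members that passed in both muscles. Each is the 250 bases before the annotated start of the gene, from the RefSeq promoter table of build GRCm38.p6, read 5′ to 3′ on the strand of the gene. Capitals mark matches on either strand to the E-box CACGTG, the cAMP response element TGACGTCA, the GC box GGGCGG, the FoxO site GTAAACA, the heat shock element GAANNTTC, the CCAAT box CCAAT, the glucocorticoid receptor motif AGAACA or the CArG box of SRF.
Otud1, chr2:19657481-19657730, plus strand: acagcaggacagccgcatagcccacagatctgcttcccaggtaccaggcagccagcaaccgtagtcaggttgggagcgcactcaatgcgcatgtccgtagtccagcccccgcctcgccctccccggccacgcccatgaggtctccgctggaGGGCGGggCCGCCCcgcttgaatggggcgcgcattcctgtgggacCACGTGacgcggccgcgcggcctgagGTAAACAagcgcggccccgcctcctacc
Usp28, chr9:48985135-48985384, plus strand: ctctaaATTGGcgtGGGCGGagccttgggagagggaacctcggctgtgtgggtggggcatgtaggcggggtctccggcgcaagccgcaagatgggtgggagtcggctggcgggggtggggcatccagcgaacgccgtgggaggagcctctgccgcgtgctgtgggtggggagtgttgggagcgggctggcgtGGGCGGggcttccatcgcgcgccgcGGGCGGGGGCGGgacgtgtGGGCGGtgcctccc
Usp3, chr9:66593116-66593365, minus strand: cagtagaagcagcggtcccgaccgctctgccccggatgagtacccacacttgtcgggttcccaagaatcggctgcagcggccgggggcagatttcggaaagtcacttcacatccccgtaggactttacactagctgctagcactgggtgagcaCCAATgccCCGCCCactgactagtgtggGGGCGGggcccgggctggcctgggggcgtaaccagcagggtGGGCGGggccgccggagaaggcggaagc

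The Otud1 promoter held an E-box whose first letter lay 54 bases before the start, a pair of GC boxes at 99 and 91 bases, and a FoxO site at 28 bases. The Usp28 promoter held 5 GC boxes, at 236, 58, 33, 27 and 14 bases, and a CCAAT box at 244 bases. The Usp3 promoter held 3 GC boxes, at 89, 69 and 28 bases, and a CCAAT box at 97 bases. No marked match overlapped another. The table matched 40 of the members to 41 promoters, since Otud5 had a pair of them. A GC box was in 65.9% of these promoters and in 32.7% of all 32851 promoters, an E-box in 12.2% and 6.02%, a CCAAT box in 26.8% and 33.8%, and the glucocorticoid receptor motif in 4.88% and 16.1%. The FoxO site and the cAMP response element were each in 2.44% of member promoters, against 3.17% and 1.55% of all. The heat shock element and the CArG box were in 0 member promoters and in 6.69% and 1.47% of all. A match is a run of letters and was not tested as a binding site.

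Usp28 is known for keeping the transcription factor Myc from degradation and for its part in the DNA damage response. Its level in soleus control was 1.99, 1.90, 2.45, 2.34 and 2.14 on arrays 1 to 5, and in soleus HLS 1.84, 1.57, 1.63, 1.41 and 1.33. Gastrocnemius control arrays read 2.14, 2.86, 2.65, 2.37 and 2.25, and in gastrocnemius HLS 2.06, 1.64, 1.78, 1.92 and 1.93. The groups stood apart in both muscles, though the nearest arrays lay close together. No second Usp28 probe was kept to set beside this one. Usp28 fell by 0.61 ± 0.14 in soleus (adjusted p = 0.012, limma) and by 0.59 ± 0.14 in gastrocnemius (adjusted p = 0.026). The gastrocnemius call was lost when gastrocnemius control 2 (-0.49, adjusted p = 0.085) or 3 (-0.54, 0.075) or HLS 2 (-0.53, 0.071) or 3 (-0.57, 0.063) was left out. Usp25, its closest relative, did not pass in either muscle, at 0.14 ± 0.18 in soleus (-0.01 without HLS 1) and 0.12 ± 0.18 in gastrocnemius (0.0025 without gastrocnemius HLS 1). The difference between the relatives was not tested.

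Usp3 removes ubiquitin from histones H2A and H2B and takes part in the response to DNA damage. Its level in soleus control was -0.95, -1.26, -1.03, -0.96 and -0.71, and in soleus HLS -0.30, -0.51, -0.48, -0.19 and -0.27. In gastrocnemius control it was -1.19, -0.80, -1.91, -1.17 and -1.31, and in gastrocnemius HLS -0.50, -0.60, -0.72, -0.74 and -0.65. All 5 HLS arrays lay above all 5 control arrays in each muscle. Usp3 rose by 0.63 ± 0.15 in soleus (adjusted p = 0.012, limma) and by 0.63 ± 0.15 in gastrocnemius (adjusted p = 0.021). Without gastrocnemius HLS 1 the gastrocnemius difference was 0.60 and no longer passed (adjusted p = 0.055), and in a fit of gastrocnemius arrays alone it was not past the threshold either (adjusted p = 0.058). A second Usp3 probe rose by 0.78 ± 0.15 in soleus (adjusted p = 0.0029 over all probes, limma), and another, at 0.14 ± 0.17, did not pass. In gastrocnemius neither of these probes passed, at 0.52 ± 0.15 (adjusted p = 0.068) and 0.09 ± 0.17 (adjusted p = 0.90).

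**Figure D2:**
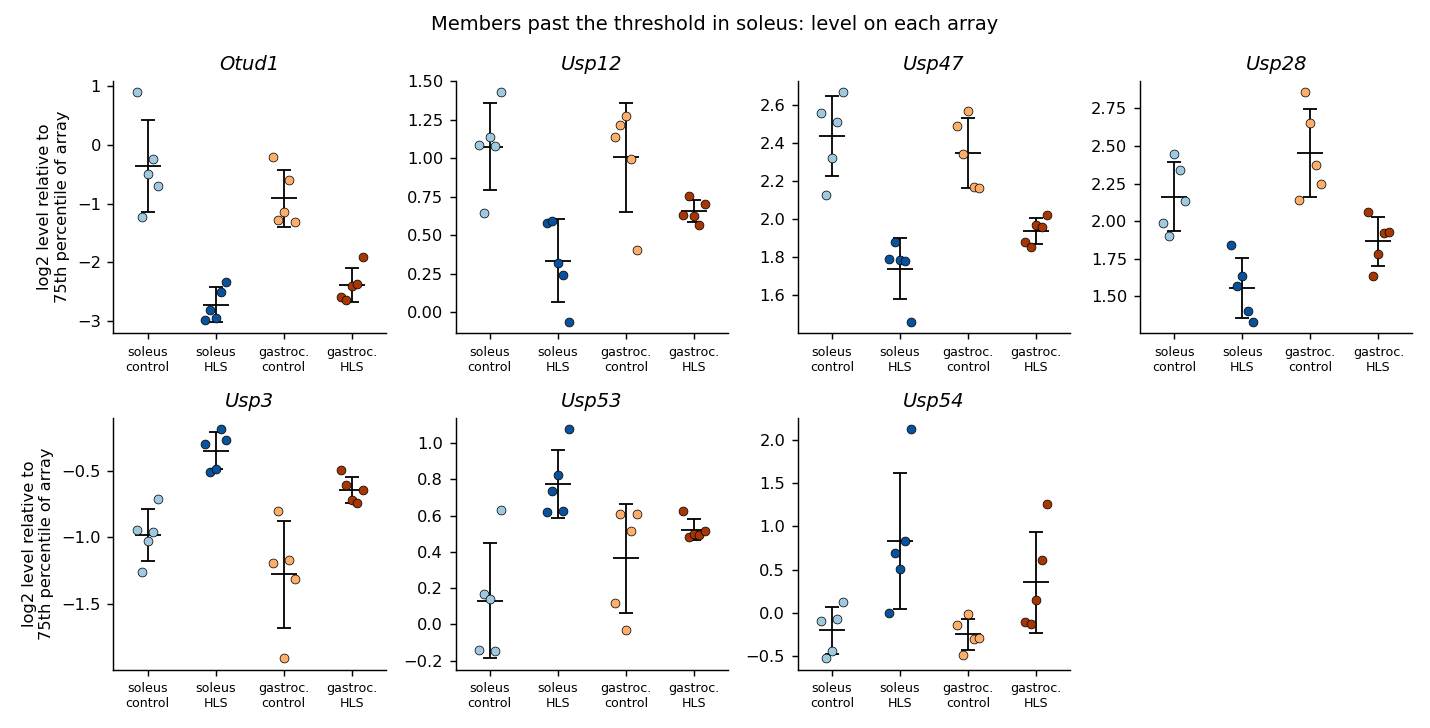
Log2 level minus that of the array's 75th percentile for the 7 members past the threshold in soleus; each point is 1 array (5 per group, arrays 1 to 5 from left to right), and the black bars are the group mean ± SD. The soleus groups do not overlap for Otud1, Usp47, Usp12, Usp28 and Usp3, and Usp54 reaches 2.12 on soleus HLS 5.

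Usp47 encodes a relative of Usp7 that stabilises DNA polymerase beta in base excision repair. Its level in soleus control was 2.56, 2.13, 2.32, 2.51 and 2.67, and in soleus HLS 1.79, 1.88, 1.79, 1.78 and 1.46. In gastrocnemius control it was 2.49, 2.34, 2.57, 2.17 and 2.16, and in gastrocnemius HLS 1.88, 1.85, 1.97, 1.96 and 2.02. The HLS arrays lay below the control arrays without overlap in both muscles. Usp47 fell by 0.70 ± 0.11 in soleus (adjusted p = 0.00055, limma), and its difference of -0.41 ± 0.11 in gastrocnemius missed the threshold (adjusted p = 0.052). The gastrocnemius value passed under normexp, quantile scaling, the strictest filter, slide as a random block, a trended variance, gastrocnemius arrays alone and without gastrocnemius control 5, with adjusted p from 0.032 to 0.049. The 6 probes of Usp47 disagreed: the 2 brightest passed in soleus, at -0.70 ± 0.11 and -0.45 ± 0.12, and the other 4 did not, at values from -0.13 to 0.37.

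Usp12 works with the cofactor Wdr48 and has a close relative, Usp46. The level of Usp12 in soleus control was 1.08, 0.64, 1.14, 1.08 and 1.43, and in soleus HLS 0.58, 0.59, 0.32, 0.24 and -0.06. In gastrocnemius control it was 1.13, 1.21, 1.27, 1.00 and 0.40, and in gastrocnemius HLS 0.63, 0.75, 0.62, 0.57 and 0.71. Only the soleus groups stood apart, since gastrocnemius control 5 lay below every gastrocnemius HLS array. Usp12 fell by 0.74 ± 0.16 in soleus (adjusted p = 0.0072, limma) and did not pass in gastrocnemius, at -0.35 ± 0.16 (adjusted p = 0.32). A second, dimmer Usp12 probe did not pass in soleus, at -0.16 ± 0.26. Usp46, named here after its values were seen, did not pass with all arrays, at 0.34 ± 0.11 in soleus (adjusted p = 0.077) and 0.27 ± 0.11 in gastrocnemius (adjusted p = 0.25). It passed in soleus without HLS 1, at 0.44 (adjusted p = 0.011), and without control 2, at 0.40 (adjusted p = 0.041). So the point estimates of these relatives had opposite signs, and the difference between them was not tested.

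Usp53 and Usp54 are closely related members of the family. The level of Usp53 in soleus control was -0.14, 0.17, 0.14, -0.15 and 0.63, and in soleus HLS 0.62, 0.73, 0.82, 0.62 and 1.08. Control 5 lay within the HLS range. Across gastrocnemius control it read 0.12, 0.61, -0.03, 0.52 and 0.61, and in gastrocnemius HLS 0.63, 0.48, 0.50, 0.49 and 0.51. The gastrocnemius groups overlapped. Usp53 rose by 0.64 ± 0.15 in soleus (adjusted p = 0.011, limma) and did not pass in gastrocnemius, at 0.16 ± 0.15 (adjusted p = 0.72). In a fit of soleus arrays alone the soleus call was lost (adjusted p = 0.054). The difference between the muscles, 0.49 ± 0.21, did not pass (adjusted p = 0.82), although it had the lowest p of the members. The other 3 Usp53 probes gave -0.07, -0.17 and 0.70 in soleus, and none of them passed.

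The level of Usp54 in soleus control was -0.09, -0.52, -0.43, -0.07 and 0.13, and in soleus HLS 0.00, 0.69, 0.51, 0.83 and 2.12. In gastrocnemius control it was -0.14, -0.48, -0.02, -0.30 and -0.29, and in gastrocnemius HLS -0.11, -0.12, 0.15, 0.61 and 1.26. HLS 5 was the highest array of both muscles, and both of its muscles came from 1 mouse. Usp54 rose by 1.03 ± 0.30 in soleus (adjusted p = 0.044, limma) and did not pass in gastrocnemius, at 0.60 ± 0.30 (adjusted p = 0.36), or 0.38 without gastrocnemius HLS 5. Without soleus HLS 5 the soleus difference was 0.71 and did not pass (adjusted p = 0.11). The call was also lost without soleus control 1, 2, 3 or 4, or soleus HLS 2, 3 or 4, with differences from 0.95 to 1.11 and adjusted p from 0.050 to 0.096. Quantile scaling, median scaling, no filter on dim probes and a fit of soleus arrays alone ended it too, at adjusted p from 0.055 to 0.11. Without HLS 1 it was 1.24 and passed (adjusted p = 0.014).

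The within-batch values bear on how far these changes go with slide and scan day. On scan day 2, which held soleus control 1 to 5 and soleus HLS 1 to 3, the difference was -2.56 for Otud1, -0.62 for Usp47, -0.58 for Usp12, -0.48 for Usp28, 0.55 for Usp3, 0.59 for Usp53 and 0.60 for Usp54. All 7 kept their direction there. On slide 5, with HLS 1 to 3 against the single control 5, it was -2.22 for Otud1, -0.85 for Usp47, -0.93 for Usp12 and -0.46 for Usp28, and the rising members stood at 0.28 for Usp3, 0.10 for Usp53 and 0.28 for Usp54. On this slide the falls of Usp47 and Usp12 were larger than over all arrays, and the other changes were smaller. Its only control, control 5, was the highest soleus control array for Usp47, Usp12, Usp3, Usp53 and Usp54. A high control enlarges a fall and shrinks a rise, so slide 5 cannot show whether falls and rises differ in how far they hold. Without HLS 1 the values on slide 5 were -2.19 for Otud1, -0.83 for Usp47, -0.97 for Usp12, -0.54 for Usp28, 0.22 for Usp3, 0.15 for Usp53 and 0.48 for Usp54. On scan day 2 without HLS 1 they were -2.52, -0.60, -0.62, -0.56, 0.49, 0.65 and 0.80 in the same order.

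In gastrocnemius, slide 2 held control 3 to 5 and HLS 1, and scan day 1 held all 5 control arrays and HLS 1. The difference on slide 2 was -1.56 for Otud1, -0.36 for Usp28 and 0.96 for Usp3, and on scan day 1 it was -1.67, -0.39 and 0.78. The direction was the same as over all arrays, with a single HLS array behind each value. With slide as a fixed block 0 members passed in either muscle, at adjusted p of 0.20 for Otud1 and 0.18 for Usp47 in soleus. With scan day as a fixed block 2 members passed in soleus (Otud1 and Usp47, both lower) and 0 in gastrocnemius. The shares of all genes that passed with these blocks were not counted, so these counts cannot be set against them.

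**Figure D3:**
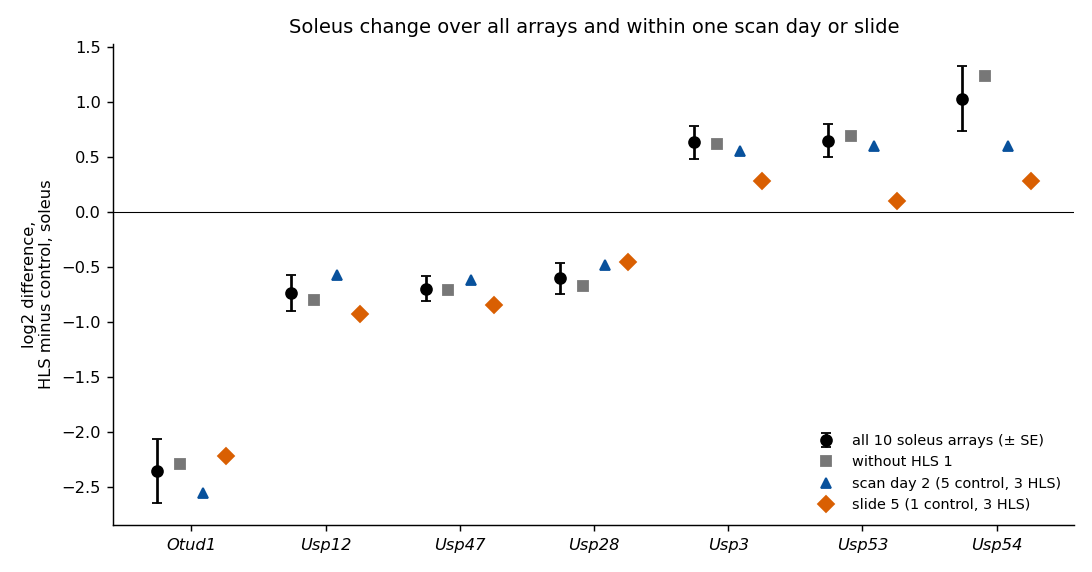
Log2 difference between soleus HLS and soleus control for the 7 members past the threshold: over all 10 soleus arrays (circles, ± SE), without HLS 1 (squares), on scan day 2 (triangles) and on slide 5 (diamonds, 1 control array). Otud1 lies between -2.56 and -2.22 in all 4, while Usp53 ranges from 0.10 on slide 5 to 0.68 without HLS 1.

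Some markers of fibre types and other cell types moved in the same comparisons. In soleus HLS, 2 of 10 slow fibre genes and 1 of 4 smooth muscle genes passed as lower, with median differences of -0.58 and -0.77, and the median of the 6 adipocyte genes was -0.76 with none past the threshold. Without HLS 1 the same slow fibre and smooth muscle genes passed, and the medians were -0.06, -0.73 and -0.45. The median of the 6 Schwann cell genes was -0.44, and -0.65 without HLS 1. In soleus 1 of 5 tendon genes (Scx, lower) and 1 of 2 tested satellite cell genes (Cdh15, higher) also passed, with and without HLS 1, and without it Kdr, 1 of 6 endothelial genes, passed as lower. In gastrocnemius HLS, Csrp3 of the 10 slow fibre genes fell by 3.42 ± 0.37, Kdr by 1.12 ± 0.27 and Scx by 0.75 ± 0.16 (adjusted p = 2.4e-05, 0.023 and 0.0099 in limma). These marker genes were singled out after their values were seen, and each was the only gene of its list to pass in gastrocnemius. The medians in gastrocnemius were 0.01 for the slow fibre list, -0.04 for the endothelial list and -0.20 for the tendon list. Of all genes, 3.52% passed as lower in soleus and 2.01% in gastrocnemius. The median of the 4 smooth muscle genes in gastrocnemius was -0.51, with none past the threshold. The mean level of the smooth muscle genes ran from 2.84 to 3.62 in soleus HLS and from 3.46 to 4.62 in soleus control. The mean level of the adipocyte genes ran from 0.32 to 2.57 in soleus HLS and from 1.51 to 3.23 in soleus control. None of the 10 tested macrophage genes, 3 tested neutrophil genes or 4 lymphocyte genes passed in either muscle. Their part in the changes of the members was not tested.

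By role, the members that act on free chains or at the proteasome did not pass after suspension. Usp14 sits on the proteasome and trims chains before a protein is taken in. Its difference was 0.08 ± 0.10 [-0.13, 0.29] in soleus and 0.01 ± 0.10 [-0.21, 0.22] in gastrocnemius, so its interval lay within 1.5-fold of control in both muscles. Usp5 takes apart free chains, and it stood at 0.17 ± 0.13 in soleus and -0.02 ± 0.13 in gastrocnemius. Usp13, its relative, stood at 2.73, 2.70, 2.59, 2.94 and 2.62 in soleus control and at 2.32, 2.14, 2.32, 2.59 and 2.34 in soleus HLS. These arrays met at 2.59 and the difference, -0.38 ± 0.14, did not pass (adjusted p = 0.12). It passed under normexp, at -0.42 (adjusted p = 0.036). In gastrocnemius Usp13 stood at 0.05 ± 0.14.

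In the list of 7 members tied to p53 and DNA damage, which leaves Usp3 to the chromatin list, 2 passed in soleus, beside 5.91% of all genes, and 1 in gastrocnemius, beside 3.16%. Usp28 and Usp47 were the 2, both lower, and Usp28 was the 1 in gastrocnemius. Usp3, which also acts in the DNA damage response, rose in both muscles. Usp7, which stabilises p53 and its ligase Mdm2, stood at 0.11 ± 0.08 in soleus and -0.01 ± 0.08 in gastrocnemius. Usp10, which acts on p53 and binds the stress granule protein G3bp1, stood at 0.02 ± 0.12 and -0.25 ± 0.12. Of the 6 tested chromatin members Usp3 alone passed, in both muscles, and Usp22, the deubiquitinase of the SAGA complex, stood at 0.16 ± 0.15 (0.25 without HLS 1) and 0.05 ± 0.15. None of the 3 mitochondrial members passed. Usp30, which sits on the outer mitochondrial membrane and opposes mitophagy, stood at 0.26 ± 0.12 in soleus (adjusted p = 0.24) and -0.01 ± 0.12 in gastrocnemius. Usp15, a relative of Usp4 and Usp11 that acts in TGF-beta signalling, stood at -0.13 ± 0.12 and -0.18 ± 0.12 by its brightest probe, while its second brightest probe passed in soleus at -0.60 ± 0.12 (adjusted p = 0.0041 over all probes).

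Members tied to muscle loss in earlier work did not pass in either muscle. Usp19 is anchored in the endoplasmic reticulum, and mice without it lose less muscle in wasting models. Its level was 0.95, 0.69, 1.09, 1.01 and 1.37 in soleus control and 1.78, 1.50, 1.24, 1.62 and 1.01 in soleus HLS. The groups overlapped through control 5 and HLS 5, and the difference of 0.41 ± 0.15 [0.10, 0.72] did not pass (adjusted p = 0.13 in limma). In gastrocnemius it was 0.29 ± 0.15 (adjusted p = 0.39). The soleus value passed under quantile scaling, at 0.45 (adjusted p = 0.045). A second, dimmer Usp19 probe did not pass, at 0.17 ± 0.22 in soleus and -0.02 ± 0.22 in gastrocnemius. Usp1, another of these members, stood at -0.14 ± 0.13 in soleus and -0.29 ± 0.13 in gastrocnemius. All its gastrocnemius HLS arrays lay below all its gastrocnemius control arrays.

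Usp2, whose transcript is driven by the circadian clock, stood at 2.47, 1.47, 2.67, 1.52 and 3.27 in soleus control and at 3.34, 2.40, 2.59, 2.66 and 2.48 in soleus HLS. The control arrays were widely spread, and the difference of 0.41 ± 0.28 did not pass (adjusted p = 0.49). It was 0.25 without HLS 1 (adjusted p = 0.73), and from 0.21 to 0.66 as each soleus control array was left out. Of 16 clock genes, 2 passed in soleus HLS, both higher, beside 2.38% of all genes that passed as higher. They were Tef at 1.06 ± 0.22 (adjusted p = 0.0044 in limma) and Hlf at 0.82 ± 0.22 (adjusted p = 0.027). The Hlf call was lost without any 1 of soleus control 1 to 4 or soleus HLS 3 to 5, with differences from 0.72 to 0.83, and without HLS 1 Cry2 passed beside both. On slide 5 the difference of Tef was 0.21, against a single control array, and its call was lost with slide as a fixed block. Usp18, which takes the ubiquitin-like protein ISG15 off its targets, stood at -0.02 ± 0.13 in soleus and 0.07 ± 0.13 in gastrocnemius. Of 15 interferon-induced genes, Rsad2 alone passed in soleus, at 0.77 ± 0.22 (adjusted p = 0.044 in limma), and none passed in gastrocnemius. Of all genes, 5.91% passed in soleus and 3.16% in gastrocnemius. The Rsad2 call was lost without any 1 of soleus control 1 to 3 or soleus HLS 1, 2, 4 and 5, with differences from 0.63 to 0.83.

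Among the 7 Otud genes, Otud1 alone passed after suspension, beside 5.91% of all genes in soleus and 3.16% in gastrocnemius. Otud5, which restrains interferon production, stood at 0.13 ± 0.09 in soleus and -0.01 ± 0.09 in gastrocnemius. Otud7b, which prefers chains joined through lysine 11, stood at 0.11 ± 0.31 and 0.41 ± 0.31, with gastrocnemius control 3 far below the other arrays. Without that array the gastrocnemius difference was -0.06 (adjusted p = 0.92), so its sign rested on 1 array. Over the family, the 95% interval lay within a 2-fold change for 47 of 52 members in soleus and 49 of 52 in gastrocnemius, and within 1.5-fold for 39 and 40. Without HLS 1 the soleus counts were 47 and 38.

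Deubiquitinases outside the naming rule were read from a list of 36 tested genes. Of these, Otulin alone passed after suspension, beside 5.91% of all genes in soleus and 3.16% in gastrocnemius, and it fell in both muscles. Otulin, listed in the files under an older clone name and matched through its accession, is the OTU enzyme that cuts linear chains. It fell by 1.25 ± 0.15 in soleus (adjusted p = 2.2e-05 in limma) and by 0.79 ± 0.15 in gastrocnemius (adjusted p = 0.0040), and without soleus HLS 1 the soleus difference was -1.12. On slide 5 its difference was -1.22 and on scan day 2 it was -1.41. The Otulin call was lost in both muscles with slide as a fixed block, and in gastrocnemius with scan day as a fixed block. Of 8 partners of members, G3bp1 alone passed, in soleus, beside 5.91% of all genes. It fell there by 0.69 ± 0.18 (adjusted p = 0.022 in limma). This call was lost without soleus control 1, 2 or 4 or soleus HLS 3 or 5, and with slide or scan day as a fixed block. On slide 5 the difference of G3bp1 was -0.18, against a single control array, and on scan day 2 it was -0.73. The cofactor Wdr48 did not pass.

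The last comparison asks how the control muscles differ. Usp20, Usp1, Usp4 and Usp13 were higher in soleus control than in gastrocnemius control, and Usp2, Usp45, Usp26, Usp50, Usp25, Usp21, Usp48, Usp10, Usp39, Usp24 and Usp52 were lower. These 15 of 52 members (28.8%) passed, beside 33.5% of all genes, with 4 higher (7.69%, beside 12.6%) and 11 lower (21.2%, beside 20.9%). The split depended on the scaling. With each array scaled to its median, 11 passed, 9 higher and 2 lower, and the median of all genes moved by 0.16. With quantile scaling 14 passed, 5 higher and 9 lower. The split of all genes moved the same way. It was 3209 higher and 5335 lower with the main scaling, 6022 and 3348 with median scaling, and 3791 and 4220 with quantile scaling. With the main scaling the median difference was -0.06 over the members and -0.06 over all genes. In 6 members (11.5%, beside 21.6% of all genes) the 5 soleus and the 5 gastrocnemius arrays did not overlap. With the mouse as a block in the 10 control arrays 10 passed, 9 of them among the 15. Usp2, Usp10, Usp24, Usp39, Usp48 and Usp52 were lost and Otud1 passed, at 0.55 (adjusted p = 0.032 in limma). The share of all genes that passed in that fit was not counted.

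Usp20 binds the von Hippel-Lindau protein and takes part in receptor recycling, as does its relative Usp33. Its level was 3.09, 3.20, 2.60, 3.09 and 2.47 in soleus control and 1.60, 1.33, 1.40, 1.76 and 1.80 in gastrocnemius control. The muscles did not overlap, and Usp20 was higher in the soleus of 5 of 5 control mice and 5 of 5 HLS mice. It stood 1.31 ± 0.20 [0.90, 1.72] higher in soleus (adjusted p = 6.4e-05 in limma). In soleus HLS it was 2.15, 3.11, 2.93, 3.36 and 2.84, with HLS 1, the array with the low slow fibre level, nearest to the gastrocnemius range. A second, dimmer Usp20 probe did not pass and stood at -0.17 ± 0.13, so the 2 probes of the gene disagreed. Usp33 stood at 0.14 ± 0.10 and did not pass.

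Usp4 and Usp13 were also higher in soleus control, by 0.48 ± 0.10 (adjusted p = 0.0015) and 0.45 ± 0.14 (adjusted p = 0.015) in limma. Usp4 is a relative of Usp15 that takes part in splicing and in TGF-beta signalling. Its second probe did not pass and stood at -0.24 ± 0.14. Usp1, which removes ubiquitin from FANCD2 and PCNA in DNA repair, was 1.00, 1.21, 0.64, 1.28 and 0.82 in soleus control and 0.39, 0.40, 0.40, 0.51 and 0.79 in gastrocnemius control. The groups overlapped at soleus control 3 and gastrocnemius control 5, and the difference was 0.49 ± 0.13 (adjusted p = 0.0068). Usp1, Usp4 and Usp13 were each higher in the soleus of 5 of 5 control mice.

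Usp45, which acts on the repair nuclease subunit ERCC1, was -1.38, -1.76, -1.19, -1.35 and -1.07 in soleus control and -0.59, -0.49, -0.45, -0.53 and -0.79 in gastrocnemius control. The muscles did not overlap, and soleus was higher in 0 of 5 control mice, with a difference of -0.78 ± 0.14 (adjusted p = 0.00045, limma). In soleus HLS it was -0.74, -1.44, -1.27, -1.49 and -1.50, again with HLS 1 nearest to the gastrocnemius. A second Usp45 probe did not pass and stood at -0.01 ± 0.15. Usp26, a gene known for its expression in testis, was -1.32, -0.93, -1.19, -1.16 and -1.11 in soleus control and -0.59, -0.55, -0.63, -0.51 and -0.39 in gastrocnemius control. Its difference was -0.61 ± 0.12 (adjusted p = 0.00072), and its second, dimmer probe passed in the same direction at -1.85 ± 0.24 (adjusted p = 1.3e-05 over all probes).

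**Figure D4:**
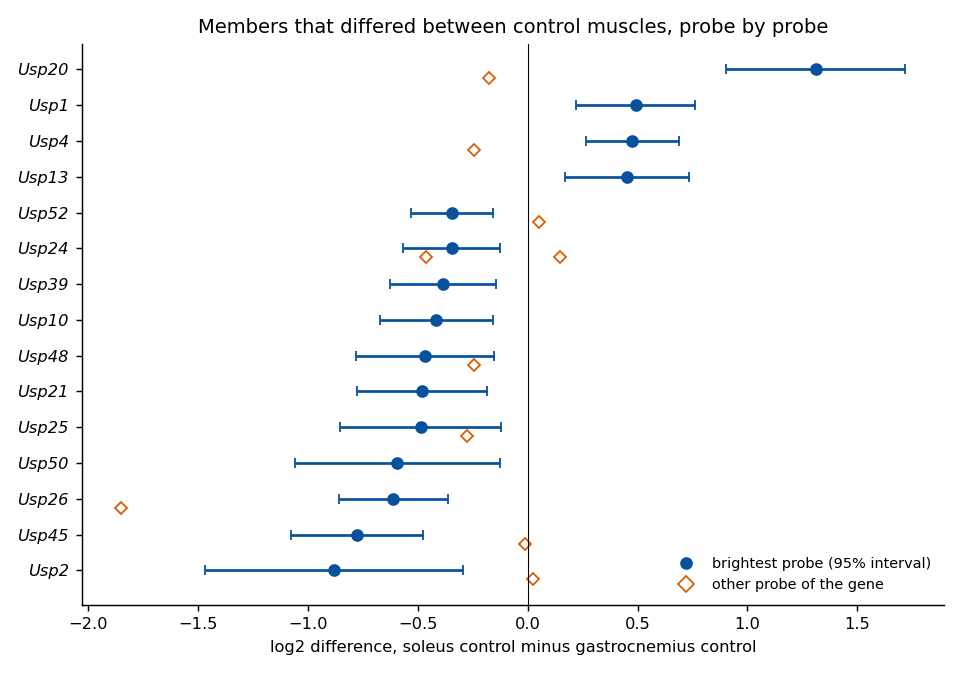
Log2 difference between soleus control and gastrocnemius control for the 15 members past the threshold; filled circles are the brightest probe with its 95% interval, and open diamonds are the other probes kept for the gene. The second probes of Usp20, Usp4, Usp45 and Usp2 lie near 0 or across it, at -0.17, -0.24, -0.01 and 0.02, while that of Usp26 lies at -1.85.

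Usp2 was 3.31, 3.16, 3.35, 3.27 and 2.73 in gastrocnemius control, and soleus control 5, at 3.27, lay within this range. Its difference was -0.88 ± 0.28 (adjusted p = 0.021, limma), and the call was lost without soleus control 2 (-0.68, adjusted p = 0.062) or 4 (-0.69, 0.070). The second Usp2 probe stood at 0.02 ± 0.10. The remaining lower members ranged from -0.34 to -0.59. Among them Usp21, which acts on histone H2A, stood at -0.48 ± 0.14 (adjusted p = 0.013), and Usp10 at -0.41 ± 0.12 (adjusted p = 0.014). Usp39, a spliceosome protein with an inactive protease domain, stood at -0.38 ± 0.12 (adjusted p = 0.015). Usp52, the Pan2 subunit of a poly(A) nuclease, stood at -0.34 ± 0.09 (adjusted p = 0.0059). Median scaling ended the calls of Usp2, Usp21, Usp10, Usp39 and Usp52, and quantile scaling those of Usp39 and Usp52.

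Usp25, which has a muscle isoform, stood at -0.49 ± 0.18 in soleus against gastrocnemius (adjusted p = 0.039). This call, and that of Usp50 at -0.59 ± 0.22 (adjusted p = 0.047), was lost in 11 of 22 other settings. For Usp25 these included leaving out any 1 of gastrocnemius control 1 to 4 or soleus control 1 and 3 to 5, with differences from -0.51 to -0.41. For Usp50 they included leaving out gastrocnemius control 1, 2 or 5 or soleus control 1 or 3 to 5, with differences from -0.59 to -0.48. Usp24, at -0.35 ± 0.11, lost its call without soleus control 4 (-0.29, adjusted p = 0.051). Usp48, at -0.47 ± 0.15, lost it without gastrocnemius control 3 (-0.41, adjusted p = 0.058) or soleus control 2 (-0.40, adjusted p = 0.055). Median scaling ended the calls of Usp25, Usp50, Usp24 and Usp48 too, and quantile scaling those of Usp50 and Usp48.

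No slide held arrays of both muscles, so slide and muscle cannot be told apart and the comparison with slide as a fixed block could not be fitted. With scan day as a fixed block Usp20 alone passed, and how many of all genes passed was not counted. The control muscles were then linked through gastrocnemius HLS 1 and gastrocnemius HLS 2 to 5, which were scanned on different days. Of the 36 other deubiquitinases, 8 were higher in soleus control, beside 12.6% of all genes, and 5 lower, beside 20.9%. Otulin stood 1.18 ± 0.15 higher in soleus (adjusted p = 1.2e-05 in limma) and was higher in the soleus of 5 of 5 control mice. Uchl1, a ubiquitin hydrolase abundant in neurons, stood 1.11 ± 0.23 higher (adjusted p = 0.0011 in limma), and Mindy4 stood at -1.17 ± 0.15 (adjusted p = 1.1e-05). The Mindy4 probe was dim, with a mean level of -3.94 in soleus control and -2.76 in gastrocnemius control. Over 21 other settings its difference ran from -1.26 to -0.50, and the call was kept in all. Adipocyte genes moved with this comparison as well, with 6 of 6 higher in soleus and a median difference of 2.46. Their mean level ran from 1.51 to 3.23 in soleus control and from -0.07 to 0.48 in gastrocnemius control, and their part in the differences of the members was not tested.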

How the data were processed

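The authors' deposited files, per the file headers, hold linear spot intensity (Agilent Feature Extraction 9.1.3.1), unscaled between arrays. Per the labels' protocols, 600 ng of total RNA plus spike-ins was amplified and Cy3-labelled. Each array had 45018 spots, 43379 of them non-control, for 41174 probes. The authors' series table equalled the processed intensity within 0.497% and served as an alternative. The authors' test and genome build are not given in the sources used here.

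Uneven spots were left out (at most 43 on an array), log2 of the processed intensity minus the array's 75th percentile was taken, and replicate spots were averaged. Probes were kept if the deposited flag called them well above background on at least 4 of 5 arrays of 1 group, and a gene, by its name in the files, was read from its brightest probe. Of 25536 genes, 14723 were named through an accession and 2676 through a symbol in the RefSeq gene list, and 8137 kept the file's name. A means model of the 4 groups over 20 arrays was fitted with limma 3.58.1 in R 4.3.3 (with version 1.17.8 of data.table), two-sided, and checked on simulated data. Figures used matplotlib 3.10.9.

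Members were named if past the threshold in a contrast, if among 16 fixed genes whatever their values, or if at the ends of a role list, and, where none passed, the 2 with the lowest p. The members, lists and motifs were chosen with earlier results of these data known. Slide and scan day come from the file headers. Per the labels, both muscles of 1 number in an arm came from 1 mouse, and control and HLS mice differ. A mouse's 2 muscles had deviations from their group means that correlated at -0.345 to 0.171 (median 0.0339, 10 mice). Alternatives were normexp (offset 50), quantile and median scaling, the series table, 2 filters, every probe, slide and scan day blocks, a variance trend, single muscles, replicate blocks and leaving out each array. Values within slides and scan days, and lists without soleus HLS 1, were added after seeing the data. One further gene list is not reported here.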

Additional observations from a re-analysis of the deposited data

Results flagged for a closer look

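In 10 of 160 groups checked (4 groups of each of 40 named genes), 1 of the 5 arrays lay far from the other 4 by Dixon's criterion, which chance meets in about 1 in 20 groups. The values are log2 levels.

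Otud7b stood at -1.69 on gastrocnemius control 3, against 0.50 to 0.80 on the other 4, and at 0.86 on soleus HLS 5, against 0.43 to 0.48. Usp47 stood at 1.46 on soleus HLS 5 (others 1.78 to 1.88), in the direction of its fall. Usp7 stood at 3.03 on soleus HLS 5 (others 3.15 to 3.18) and at 2.78 on gastrocnemius HLS 2 (others 3.00 to 3.04). Usp2 stood at 3.34 on soleus HLS 1 (others 2.40 to 2.66), and Usp24 at 0.45 on soleus HLS 2 (others 0.76 to 0.87). Usp53 stood at 0.63 on gastrocnemius HLS 1 (others 0.48 to 0.51), and Usp19 at 0.90 on gastrocnemius control 5 (others 1.42 to 1.52). On soleus control 2, Usp50 stood at -2.51 (others -3.31 to -3.18).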

How the results depend on the processing

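With slide as a fixed block, 0 members passed in soleus and 0 in gastrocnemius, and Hlf reversed in soleus, at -0.12 (adjusted p = 0.97, limma). With scan day as a fixed block, 2 passed in soleus, 0 in gastrocnemius and 1 between the control muscles, and Usp25 reversed between the control muscles, at 0.11 (adjusted p = 0.88, limma). The soleus slide block rests on the 4 arrays of slide 5. Under the other settings run, the count of members past the threshold stayed within 1.5 times the main count in each comparison. Leaving out each array in turn gave 6 to 8 in soleus, 2 to 4 in gastrocnemius, 0 to 0 for the difference between muscles and 13 to 16 between control muscles. With the replicate number as a block 6 passed in soleus and 2 in gastrocnemius, with Usp28 lost in both, but those numbers mark different mice. Arrays of 1 number in a muscle had deviations correlated at -0.306 to 0.168 (median -0.0183). With the animal as a random block the pairing left 0 for the difference between muscles and 15 between control muscles. For the block fits, the shares of all genes that passed were not counted. Of 3996 values of single genes under other settings, 3638 stayed on their side of the threshold with their direction, 134 lost a call, 26 gained one, 2 reversed, and 196 changed sign without being past the threshold. The cause of these changes was not tested. A fit of soleus arrays alone ended the soleus calls of Usp53, Usp54, Hlf, G3bp1 and Rsad2, median scaling those of Usp54, Hlf and Rsad2, and quantile scaling or no filter on dim probes those of Usp54 and Rsad2. Few arrays, and probes of 1 gene that disagree, limit what these values show.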
